A study of Homo sapiens with 8 samples.

Results

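A group of 9 genes for splicing, nuclear speckle and nuclear RNA-binding proteins carried CTCF-linked RNA peaks in human lung fibroblasts: SRRM2, PNN, ACIN1, RSRP1, U2AF2, SF1, PRP4K (also called PRPF4B), SFPQ and HNRNPD. They were chosen by the presence of a listed eCLIP peak on the gene's strand in at least 1 of 2 peak lists. The 9 genes are part of 271 protein-coding genes with such a peak. In this and the next counts over all genes, a gene of unknown strand was counted with a peak on either strand. All 9 had a peak in the list of senescent cells, where 1.19% of 20056 protein-coding genes did (238 genes). In the list of proliferating cells 3 of the 9 had one, against 0.299% of protein-coding genes (60 genes). Because a listed peak was the reason for choosing the genes, these counts describe the choice and nothing is read from them.

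Nuclear speckles are bodies in the nucleus where splicing factors gather, and SRRM2 is one of the proteins that hold them together. Splicing removes introns from a new transcript: SF1 first marks the branch point, U2AF2 binds the pyrimidine-rich stretch before the 3′ splice site, and kinases such as PRP4K act later, as the spliceosome is activated. CTCF is best known as a DNA-binding organiser of chromatin loops, and it also binds RNA.

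The cells were IMR90, a line of primary human lung fibroblasts of wild-type genotype, either untreated and proliferating or senescent after ICM, an agent that the labels do not spell out. In eCLIP, proteins are linked to RNA by ultraviolet light, CTCF is pulled down with an antibody, and the attached RNA is sequenced beside an input library made without antibody. Each condition had 2 eCLIP and 2 input libraries. The labels name 2 cell isolates without saying which library came from which. Each condition gave 1 list of input-normalised peaks, which is taken here, from its name, to join both eCLIP replicates. No value per replicate, read count or depth was in the lists, so no error or test between conditions could be given. In bulk samples, more cells with bound RNA and more bound RNA per cell cannot be told apart.

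The proliferating list held 147 peaks and the senescent list 572. Peaks on the same strand with at most 50 nt between them were joined into sites, 117 and 286 in all. Every peak has the authors' signal value, a score against input on a scale that is not stated, and a -log10 p-value against input with a ceiling of 400. The signal value had a median of 3.54 among proliferating and of 4.71 among senescent peaks, and the lowest was 3.003 and 3.005. These values place a peak within its own list and are not compared between lists. Of 10 fibroblast marker genes, 4 (COL1A1, COL1A2, COL3A1 and DCN) had a proliferating peak and 1 (DCN) a senescent peak. None of 9 epithelial, endothelial and blood markers had a peak in either list. Only 0.299% of protein-coding genes had a proliferating and 1.19% a senescent peak, so 9 genes would mostly hold none. A peak also does not measure how abundant an RNA is, so these counts do not check the cell type.

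The 9 genes held 8 proliferating peaks in 4 sites and 25 senescent peaks in 10 sites, all on the gene's own strand. These were 5.44% of the peaks of the proliferating and 4.37% of the senescent list. Every site was short against its gene: the peaks covered from 0.0549% of the span (PRP4K, senescent) to 1.54% (PNN, senescent). Outside the gene spans, the nearest senescent peak on the same strand lay 488 kb from HNRNPD, and for the other 8 genes it was at least 1095 kb away. All positions are on build hg38. Whether a site is exonic, intronic or in an untranslated region was not analysed here.

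One site reached the transcript start closely enough for its letters to be shown from the RefSeq table of start windows (GRCh38.p14), which run 50 bases into each gene. It is the first U2AF2 site, which began 34 nt after the first base of the gene. The stretch is the plus strand at chr19:55655055-55655084, read 5′ to 3′. The 16 capitals are the first bases of the site, which ran on for another 69 bases, and the 14 lower-case letters lie between the transcript start and the site.
U2AF2 site 1: gcggcaaggcgaggCGAAAGCTGCACAGGG

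**Figure D1:**
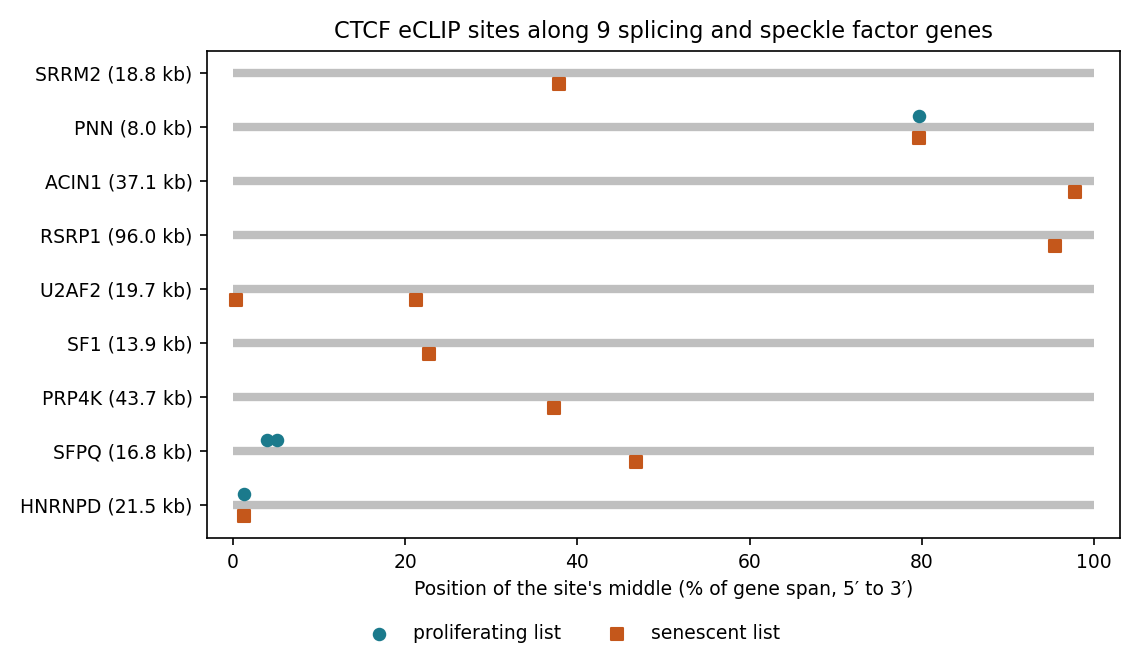
Position of every CTCF eCLIP site along the 9 genes. The x axis is the middle of the site as a percentage of the gene span, from the 5′ to the 3′ end, each grey bar is 1 gene with its length in kb, circles are sites of the proliferating list and squares sites of the senescent list. Circles and squares coincide in PNN and HNRNPD and lie apart in SFPQ.

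Sites lay from the first to the last 10% of the gene spans. In the senescent list 2 of 10 sites, in HNRNPD and U2AF2, lay in the first 10% of the span. Another 2, in ACIN1 and RSRP1, lay in the last 10%, and the other 6 lay between. Among 206 senescent sites in other protein-coding genes of known strand, 33 (16.0%) lay in the first 10% and 33 (16.0%) in the last 10%. In the proliferating list 3 of the 4 sites lay in the first 10%, 2 of them in SFPQ and 1 in HNRNPD, against 5 of 71 sites (7.04%) in other genes. With 2 genes behind it, that count is a description of SFPQ and HNRNPD and was not tested.

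The genes of the speckle and exon junction proteins are described first. SRRM2 encodes a large scaffold protein of nuclear speckles and lies on the plus strand of chromosome 16 (2752638 to 2771412). Its 3 senescent peaks formed 1 site of 49 nt at 2759714 to 2759762, which began 7.08 kb from the 5′ end and lay at 37.8% of the span. Their signal values, read from 5′ to 3′, were 5.13, 5.15 and 5.24. The first had a -log10 p-value of 50.6 and the other two were at the ceiling of 400. SRRM2 was thus among the members above the list median on every peak, and no peak was listed for it in proliferating cells.

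PNN encodes pinin, a protein of speckles and of complexes at exon junctions, and lies on the plus strand of chromosome 14 (39175254 to 39183220). At 8.0 kb it is the shortest of the 9 genes, and its site was towards the 3′ end in both lists. The 4 proliferating peaks spanned 39181551 to 39181660, with signal values of 3.97, 4.07, 4.14 and 4.14 from 5′ to 3′. The 2 senescent peaks spanned 39181537 to 39181659, with 3.55 over the first 120 nt and 4.45 over the last 3 nt. The sites of the lists shared 109 bases, which is 99.1% of the proliferating and 88.6% of the senescent site. Their 3′ ends were 1 nt apart and their 5′ ends 14 nt apart. The site lay 1.56 kb before the 3′ end of the gene.

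ACIN1 encodes acinus, which belongs to a complex at the edge of the exon junction complex, and lies on the minus strand of chromosome 14 (23058564 to 23095614). Its senescent site of 3 peaks spanned 120 nt at 23059322 to 23059441. It lay at 97.8% of the span, 758 nt from the 3′ end, and was the one member site within 1000 nt of a 3′ end. RefSeq gives 3 start windows for ACIN1, and the nearest start before the site was 12.1 kb upstream. The signal values from 5′ to 3′ were 3.49, 4.36 and 3.99, with -log10 p-values of 44.9, 52.1 and 21.1. The middle piece was therefore the highest, which was seen at no other senescent site of the 9 genes.

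RSRP1 encodes a protein rich in arginine and serine, the composition typical of splicing factors, and lies on the minus strand of chromosome 1 (25242249 to 25338254). Its annotated span of 96.0 kb is the longest of the 9 and holds RHD, a blood group gene on the other strand. The senescent site of 2 peaks lay at 25246522 to 25246597, at 95.5% of the span and 4.27 kb from the 3′ end. RefSeq gives 1 start window for RSRP1, 91.7 kb upstream of the site. Where the site lies relative to any other transcript start was not analysed. The signal values were 3.71 and 3.96 and the -log10 p-values 6.703 and 6.999. These were the lowest -log10 p-values of the 25 senescent member peaks, and RSRP1 was the one member whose senescent peaks all fell below 10 on this scale.

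The genes for recognition of the 3′ splice site and the branch point were in the senescent list alone. U2AF2 encodes the large subunit of the factor that binds the pyrimidine stretch and lies on the plus strand of chromosome 19 (55655035 to 55674716). It was the one member with 2 senescent sites, 4055 nt apart. The first, of 85 nt at 55655069 to 55655153, is the site whose opening letters are shown above. Its 3 peaks had signal values of 3.88, 4.04 and 4.19 from 5′ to 3′. The second, of 23 nt at 55659209 to 55659231, began 4.17 kb from the 5′ end, and its peaks ran the other way, with 4.14, 4.08 and 4.01. The 6 -log10 p-values were alike, from 41.4 to 42.8, while every signal value was below the list median.

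SF1 encodes the branch point binding protein and lies on the minus strand of chromosome 11 (64764606 to 64778542). Its senescent site of 76 nt, at 64775339 to 64775414, began 3.13 kb from the 5′ end and lay at 22.7% of the span. The signal value was 5.58 over the first 71 nt and 5.82 over the last 5 nt, with -log10 p-values of 30.4 and 33.1. The higher piece ranked 56 of 572 by signal value.

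PRP4K encodes a kinase of the spliceosome and lies on the plus strand of chromosome 6 (4021300 to 4064983). Its senescent site, at 4037556 to 4037579, was 24 nt wide and lay at 37.2% of the span, 16.3 kb from the 5′ end. The pieces differed more than in any other member: the signal value was 3.69 over 20 nt and 6.04 over the last 4 nt. The -log10 p-values were alike at 11.4 and 12.3. The higher value, which ranked 32 of 572, thus rests on a stretch of 4 nt.

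**Figure D2:**
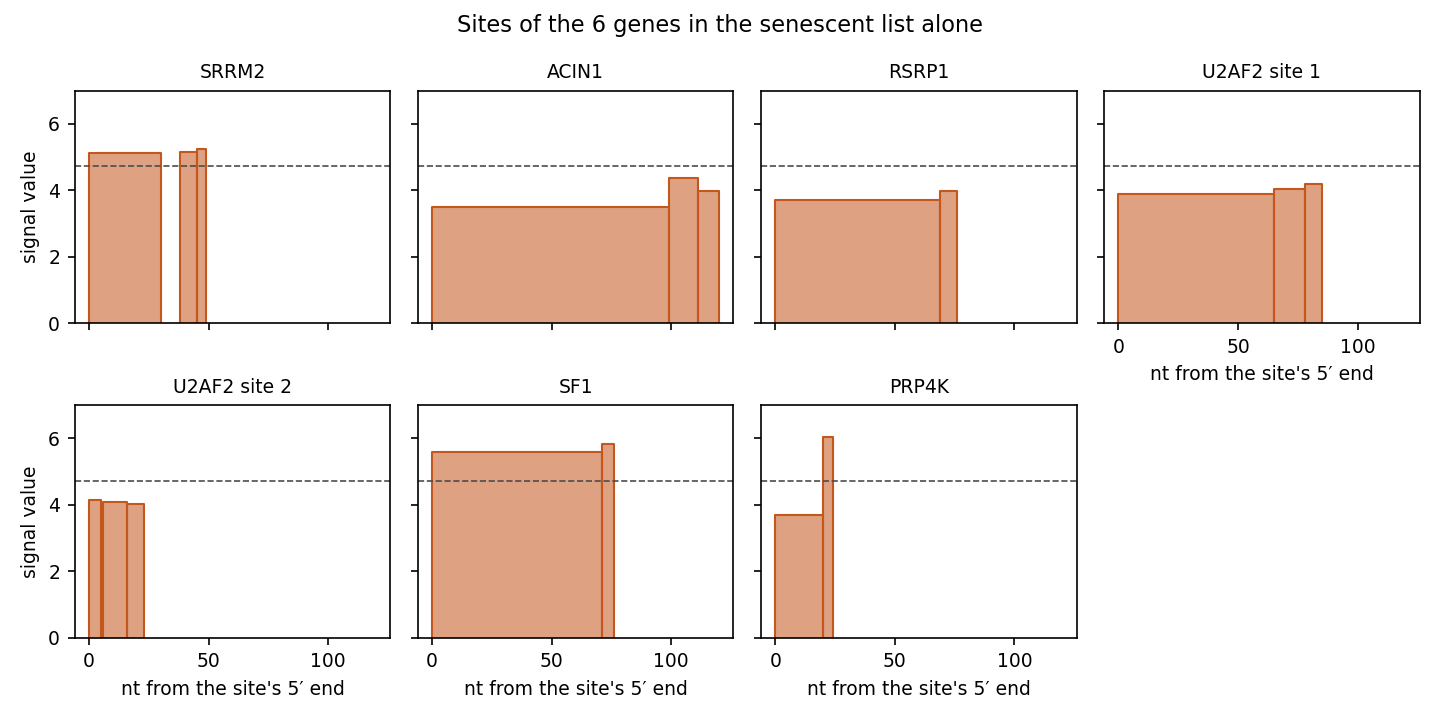
The 7 sites of the 6 genes that were in the senescent list alone. Each box is 1 peak, with the nucleotides from the 5′ end of the site on the x axis and the authors' signal value, on an unstated scale, on the y axis, and the dashed line is the list median of 4.71. SRRM2, SF1 and the last 4 nt of PRP4K stand above the line, and U2AF2, ACIN1 and RSRP1 below it.

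SFPQ and HNRNPD encode nuclear RNA-binding proteins and, with PNN, were the members in both lists. Among all protein-coding genes, 60 had a proliferating and 238 a senescent peak, and 271 had a peak in either list. Most genes of the senescent list were therefore in that list alone. The absence of the other members from the proliferating list is thus not read as a trait of splicing genes. SFPQ is a core protein of paraspeckles, the bodies built on the long RNA NEAT1, and its gene lies on the minus strand of chromosome 1 (35176380 to 35193145). In proliferating cells it had 2 peaks that stayed separate sites, 118 nt apart. The first, at 35192469 to 35192515, began 630 nt from the 5′ end and had a signal value of 4.50 and a -log10 p-value of 5.84. The second, at 35192229 to 35192350, began 795 nt from the 5′ end and had 3.49 and 10.3. In the senescent list the single SFPQ peak, at 35185263 to 35185337, lay 7.81 kb from the 5′ end, at 46.8% of the span. Its signal value of 3.24 was the lowest of the 25 senescent member peaks, and its -log10 p-value was 15.8. At least 6.89 kb separated the senescent site from the proliferating ones. SFPQ was therefore listed in both conditions without a shared position. The senescent peak ranked 535 of 572 by signal value and 218 by -log10 p-value. The first proliferating peak ranked 23 of 147 by signal value and 119 by -log10 p-value. Neither peak was thus low in its list on both measures. As the lists leave out weak peaks, a position missing from 1 list is not shown to be unbound there.

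HNRNPD encodes AUF1, a protein that binds AU-rich stretches of mRNA and affects their decay, and its gene lies on the minus strand of chromosome 4 (82352498 to 82373991). The site was 75 nt wide in both lists and began 243 nt from the 5′ end in the proliferating and 242 nt in the senescent list. The 2 sites shared 74 bases, 98.7% of each, and both ends were 1 nt apart. The proliferating site was made of 2 peaks with signal values of 3.38 and 3.83 and -log10 p-values of 8.40 and 10.0. The senescent site was made of 4 peaks with 5.49, 5.84, 6.11 and 6.36 from 5′ to 3′, all at the p-value ceiling. Within the lists, the highest proliferating HNRNPD peak ranked 57 of 147 by signal value and the highest senescent one 14 of 572. Ranks from lists of different length do not show a change between the conditions.

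**Figure D3:**
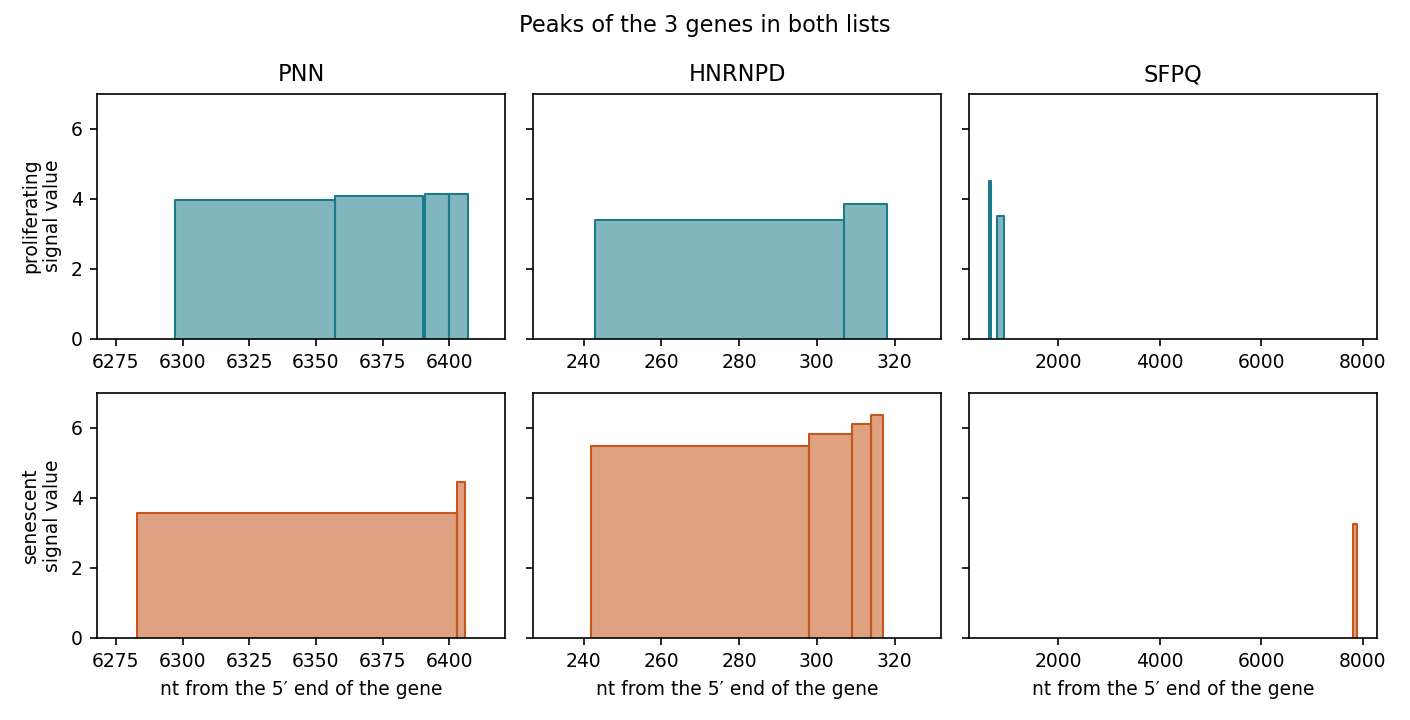
Peaks of PNN, HNRNPD and SFPQ in the proliferating (upper row) and senescent (lower row) list. Each box is 1 peak, with the distance from the 5′ end of the gene in nt on the x axis and the authors' signal value, on an unstated scale, on the y axis. The HNRNPD sites share 74 of 75 bases, the PNN sites share 109 bases, and the SFPQ sites share none.

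Set beside each other, the senescent member peaks fell into groups by signal value. HNRNPD, SF1 and SRRM2 had every peak above the list median, and PRP4K had 1 of 2. PNN, ACIN1, RSRP1, U2AF2 and SFPQ had none. In all, 10 of the 25 peaks were above the list median, and the members' median was 4.19 against 4.71 in the whole list. The members' median -log10 p-value was 41.8 against 12.3, and 6 of the list's 36 peaks at the ceiling were in HNRNPD and SRRM2. In the proliferating list 6 of the 8 member peaks were above the list median, with a members' median of 4.02 against 3.54, and none was at the ceiling. Pieces of 1 site count separately here, such as the 6 senescent U2AF2 peaks and the 4 proliferating PNN peaks. Taking the highest signal value of each site, the senescent median was 4.41 for member sites and 4.82 for all sites. The proliferating medians were 3.99 and 3.45. The median width was 10 nt for senescent member peaks and 16.5 nt for all senescent peaks, and 75.5 and 71 nt once peaks were joined into sites. As the peaks chose the genes, none of these differences was tested.

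**Figure D4:**
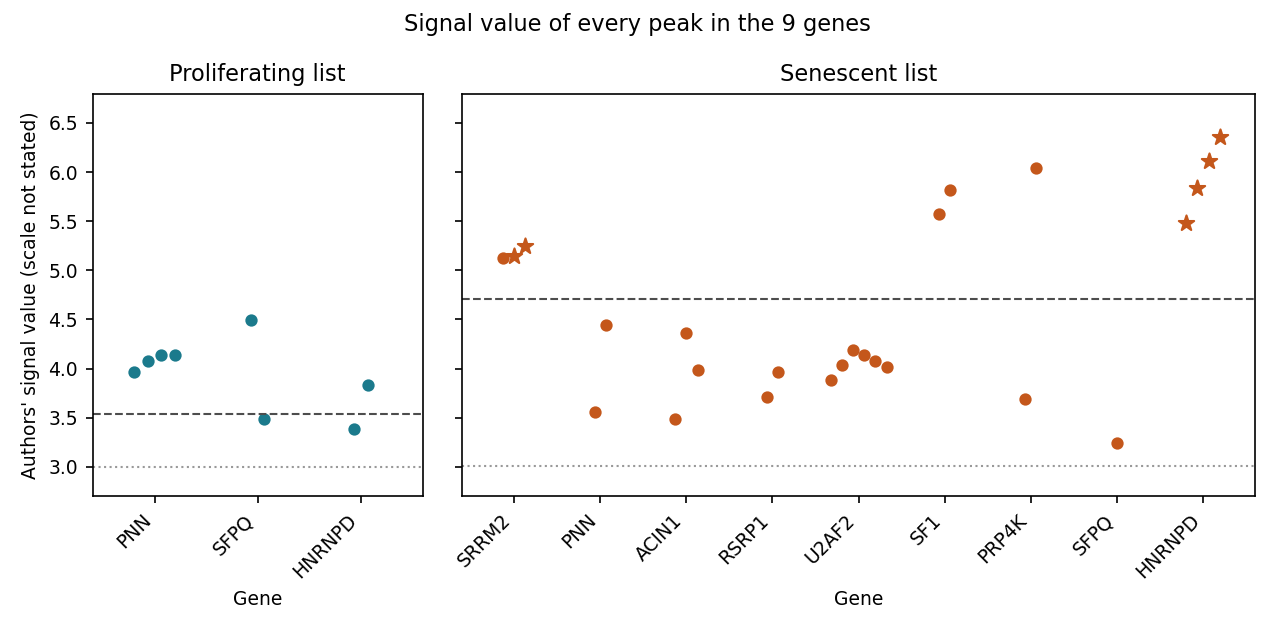
The authors' signal value, on an unstated scale, of every peak in the 9 genes, with peaks of a gene in order from 5′ to 3′. Stars are peaks at the -log10 p-value ceiling of 400, the dashed line is the median of the list (3.54 proliferating, 4.71 senescent) and the dotted line its lowest value. All 4 senescent HNRNPD peaks and 2 of the 3 SRRM2 peaks are stars.

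Of the 10 senescent member sites, 9 were made of several peaks, as were 70.6% of all senescent sites. In 7 of the 9 the 3′-most piece had the highest signal value, the exceptions being ACIN1 and the second U2AF2 site. In 8 of the 9 the 5′-most piece had the lowest. Over all 202 senescent sites of several peaks, the highest piece was the 3′-most in 137 (67.8%) and the lowest the 5′-most in 157 (77.7%), so both orders were common in the whole list. Both several-peak proliferating sites, in PNN and HNRNPD, also had their lowest value at the 5′ end, as did 10 of all 19 such sites in that list. Pieces of a site share their bases' surroundings and are not separate measurements of binding.

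The other genes of the splicing machinery were taken from a list. Of 104 splicing, speckle and hnRNP protein genes in 7 groups, 3 had a proliferating and 11 a senescent peak, and the 9 genes described above are among these. Of the other 95, none had a proliferating peak and 2 had a senescent one, which is 2.11% against 1.19% of all protein-coding genes. These 2 were THRAP3, an RS-rich protein of speckles, and PCBP2, an hnRNP that binds C-rich RNA. The THRAP3 site, at chromosome 1, 36296644 to 36296768, lay at 91.1% of a span of 97.7 kb and reached a signal value of 4.60. PCBP2 had 2 senescent sites on chromosome 12, at 53454820 to 53454870 (signal value up to 4.34) and 53455346 to 53455362 (up to 4.98), between 2.72 and 3.24 kb from the 5′ end.

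By group, the scaffold and RS-rich proteins had 5 of 21 genes in the senescent list, of which 4 are among the 9 genes chosen for their peaks and 1 is THRAP3. The hnRNPs had 2 of 26, the chosen HNRNPD and PCBP2. The senescent genes of the branch point and 3′ splice site group (2 of 16), the kinases (1 of 12) and the paraspeckle proteins (1 of 3) were chosen genes alone, so these counts restate the choice. Neither the 14 SR proteins, regulators that bind exonic enhancers, nor the 12 proteins of the U1 and tri-snRNP group (small nuclear ribonucleoproteins) had a listed peak. With 1.19% of all protein-coding genes in the senescent and 0.299% in the proliferating list, groups of this size would mostly hold none, and nothing is read from these zeros. The RNAs MALAT1 and NEAT1 had none either. The lists leave out weak peaks, so a gene without a listed peak is not shown to be unbound.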

How the data were processed

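Per the file headers, the authors deposited narrowPeak lists of input-normalised peaks on hg38, 1 per condition. Each list gives the authors' signal score (scale not stated) and the authors' -log10 p-value per peak. The build is also in the submitters' processing notes. Aligner, peak caller, duplicate removal, thresholds and the rule for joining replicates are not given in the sources used here. Normalisation to input lessens, and need not remove, the part that RNA abundance plays in a peak, and a minimum on the score leaves weak peaks out. Libraries were grouped by their titles.

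Peaks were matched to RefSeq gene spans (GRCh38.p14) with Python 3.11.15 and pandas 2.3.3, and joined within 50 nt per strand. All 9 genes were found by symbol. Strand came from RefSeq start windows, which held 8 of the 9. SFPQ was taken as minus from general knowledge, and all its peaks were on that strand. Other genes without a start window were matched on either strand (4212 of 20056). They made up 13 of the 60 genes counted in the proliferating and 49 of the 238 in the senescent list. Joining and position were tested on simulated data. The genes and lists were chosen with earlier results of these data known. Every gene with a listed peak in the 7 groups is named. No test was made, and no replicate value, count or depth was used.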

Additional observations from a re-analysis of the deposited data

How the results depend on the processing

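Over 8 counts, 24 alternatives were computed, and 21 stayed within 1.5 times the reported count. Keeping senescent peaks at or above the list's median signal value left 10 of 25 member peaks in 4 genes (HNRNPD, PRP4K, SF1 and SRRM2). Keeping the 147 senescent peaks that ranked highest by signal value, as many as in the proliferating list, left 3 genes (HNRNPD, PRP4K and SF1). Both cuts by signal value keep fewer peaks, and 15 of the 25 senescent member peaks were not above the list median. A floor of 10 on the -log10 p-value instead kept 23 of the 25 peaks and 8 genes, all but RSRP1. That floor is below the senescent list's median of 12.3 on this scale, so it is a milder cut. Which members stay thus depends on the measure and the cut. A cut to 147 peaks by -log10 p-value was not made. The same median cut on the proliferating list left 6 of 8 member peaks and all 3 genes. Why the lists differ in this was not tested. Joining peaks at 0 and 200 nt gave 5 and 3 proliferating and 12 and 10 senescent sites. The overlap of 2 sites between the lists stayed at 2 with 50% of both sites required. The share of all sites that overlap between the lists is not given here, so whether this count is usual cannot be told.

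No paired analysis was possible because each condition came as 1 joint list, and leaving out a replicate was not run for the same reason. The unknown depth limits any reading of list lengths.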
